A study of Mus musculus with 10 samples.

Results

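The genes described here encode the subunits of voltage-gated calcium and sodium channels and of potassium channels. They were taken by name, as every gene whose symbol in the platform annotation starts with Kcn, with Cacn, or with Scn followed by a digit. There were 127 such genes among 19938 genes with a probe set of their own on the array: 89 potassium channel genes, 24 calcium channel genes, 11 sodium channel genes and 3 transcripts named for the strand opposite a potassium channel gene. Where a gene had several probe sets, the one brightest on average was read.

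RNA came from the prostates of 10 male TRAMP mice, a line in which a viral T antigen under the probasin promoter, active in prostate epithelium, gives rise to prostate tumours. The nicotine group (5 mice) was given 250 µg/ml of nicotine, as the tartrate salt, in its tap water starting at 8 to 9 weeks of age, and the water group (5 mice) tap water alone. Both groups carried the transgene, and the age at collection was not given in the sources used. Each mouse gave 1 whole-transcript array, with values on a log2 scale, so a difference of 1 is a doubling of signal, and the number of arrays limits the precision.

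Ion channels set the electrical behaviour of a cell. Voltage-gated sodium channels start the action potential, voltage-gated calcium channels let in the calcium that triggers release from vesicles, and potassium channels bring the membrane back to rest and hold it there. Most channels join a pore-forming subunit with accessory subunits that set its gating or its level at the surface. Neuroendocrine cells release hormones from granules and, like neurons, can be electrically excitable. In the normal prostate they are few, and TRAMP tumours can come to consist of them.

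Nicotine mice 1 and 3 gave arrays unlike the remaining 8, and they were set off here by the level of Chga (chromogranin A, a protein of secretory granules). Nicotine 1 had 11.74 log2 units of Chga and nicotine 3 had 11.30, against 7.35, 7.52 and 7.37 in nicotine 2, 4 and 5 and 7.28, 7.73, 7.24, 7.27 and 7.07 in the water mice. The threshold of 9 thus lay between 11.30 and 7.73. These 2 arrays were picked by a measured level, so what follows about them is a description of single arrays with no test. Because both came from nicotine mice, high Chga and nicotine cannot be told apart in them. Of the 15 neuroendocrine markers measured besides Chga, 12 were above the other 8 arrays in both. The mean of the luminal markers, genes of the secretory epithelium, was 10.13 in nicotine 1 and 6.88 in nicotine 3, against 10.74 to 11.02 in the other 8 arrays. Pbsn (probasin) itself had 9.17 and 5.08, against 10.86 to 12.20 in the other 8. Of 8 luminal markers, 5 were below the other 8 arrays in both. Among them was Hoxb13, a transcription factor of the prostate, with 9.98 in nicotine 1 and 10.23 in nicotine 3, against 10.80 to 11.23. The rest were Krt8 (13.14 and 7.98, against 12.44 to 12.71), Msmb (12.99 and 6.21, against 12.94 to 13.30) and Folh1 (5.37 and 5.63, against 5.52 to 5.84). The seminal vesicle list ranged from 5.92 to 12.5 over nicotine mice and from 7.21 to 13.2 over water mice. The skeletal muscle list had a mean of 9.77 in nicotine 1 and 7.10 in nicotine 3, against 7.29 to 7.47, and the nerve list one of 7.87 and 9.51, against 6.93 to 7.78. In whole tissue, fewer cells of a type and less RNA per cell cannot be told apart, and the part of each cell type in the values below was not tested.

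Channel genes were above all other 8 arrays in both Chga-high arrays more often than genes at large. This held for 34 of 127 channel genes, or 26.8%, against 17.5% of all 19938 genes. By more than 1 log2 unit it held for 18 channel genes, 14.2%, against 2.05% of all genes. In the other direction, 11 channel genes, 8.66%, lay below all other 8 arrays in both, against 21.1% of all genes, and 0 did so by more than 1 unit, against 1.41%. The remaining 82 channel genes did neither. Channel genes were dimmer than genes at large: 39 of the 127 had a mean under 6.55, the level that sets off the lowest 25% of all genes. These shares were not matched for brightness, and the part of dim signal in them was not tested. Among only the brighter 50% of genes, 19 channel genes were left, 4 of them above and 4 below. The matching shares over all genes of that brightness were not taken, so no excess is read from these counts. Nearest to the line of 1 unit were Kcnt1, with a gap of 1.06 between the lower of both arrays and the highest of the other 8, and Cacnb4, with 0.95.

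Calcium channel genes had the largest share above, 45.8%. Of 24, 11 were above in both arrays and 0 below, and of 11 sodium channel genes 4 were above and 0 below. Of 89 potassium channel genes, 19 were above, 21.3%, and 11 below. Over all genes, 17.5% were above and 21.1% below. By over 1 unit, 10 of the 89 potassium, 6 of the 24 calcium and 2 of the 11 sodium channel genes were above. Over all genes, 2.05% were above by that much. By subfamily, 5 of 10 calcium channel pore genes and 6 of 14 calcium channel accessory genes were above. So were 10 of 35 Kv pore genes (the voltage-gated potassium channels), 2 of 15 inward rectifiers and 1 of 14 tandem-pore channels, which pass the resting potassium current. These counts are small, and subfamilies were not tested against each other or against all genes.

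**Figure D1:**
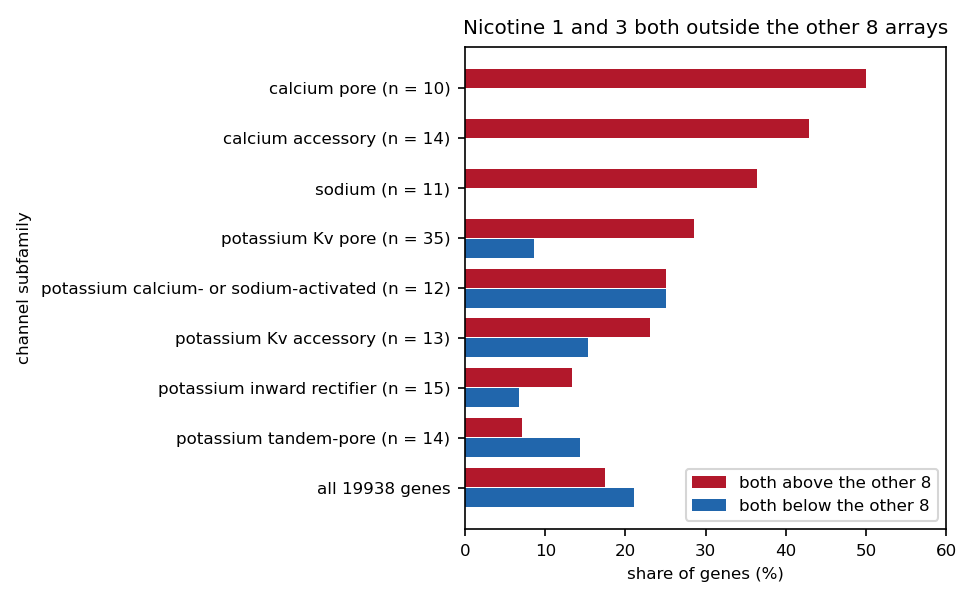
Horizontal bars give the share of genes (%) in each channel subfamily with at least 10 members for which nicotine 1 and nicotine 3 were both above (red) or both below (blue) the other 8 arrays, with the same shares over all genes at the bottom. Calcium and sodium channel genes have red bars and no blue ones, whereas over all genes the blue bar, 21.1%, is longer than the red, 17.5%.

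Among the pore subunits of calcium channels, the presynaptic pores Cacna1b and Cacna1a and the L-type pores Cacna1d and Cacna1c stood highest above the rest. Cacna1b, the pore of the N-type channel of nerve endings, had 9.04 in nicotine 1 and 9.79 in nicotine 3 (log2 values), against 6.70, 6.80 and 6.60 in nicotine 2, 4 and 5 and 6.65, 6.96, 6.65, 6.73 and 6.64 in water mice. Cacna1a, the pore of the P/Q-type channel that triggers transmitter release, had 10.39 and 9.59, against 7.38, 7.41 and 7.64 in nicotine 2, 4 and 5 and 7.58, 7.42, 7.57, 7.48 and 7.40 in water mice. Both arrays were at least 1.95 units clear of every other for these genes, and the other 3 nicotine mice lay among or beside the water mice. Cacna1d, an L-type pore found in neurons and endocrine cells, had 9.86 and 9.35, against 7.16 to 7.28 in the other nicotine mice and 7.18 to 7.38 in water mice. Cacna1c, the L-type pore best known from heart and smooth muscle, had 9.16 and 9.84, against 7.55 to 7.95 and 7.51 to 7.97. Smooth muscle markers averaged 9.76 and 7.74 in the same arrays, against 10.13 to 10.55 in the other 8. The T-type pore Cacna1h, opened by small depolarisations, had 7.37 and 7.97, against 7.09 to 7.31 in the other 8 arrays, a gap of 0.06. The other L-type pores, Cacna1s and Cacna1f, were not above in both arrays. Cacna1s was above in nicotine 1 only. Cacna1f, named after its values were seen, had 6.26 and 6.22, within the 6.09 to 6.36 of the other 8.

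Accessory subunits of calcium channels included the member with the largest gap of all. Cacna2d3, a subunit on the outer face of the membrane that raises channel number at the surface, had 10.03 in nicotine 1 and 9.51 in nicotine 3, against 5.98, 5.87 and 5.92 in nicotine 2, 4 and 5 and 6.01, 6.03, 6.00, 5.92 and 5.86 in water mice. The other 8 values lie under the level of 6.55 used below as a filter on low signal, so no fold is given. Its relative Cacna2d1, the target of gabapentin, had 10.13 and 10.99, against 7.67 to 7.96 in the other nicotine mice and 7.73 to 8.04 in water mice, and its second probe set had a gap of 2.63 where the one used had 2.09. The next members, Cacnb4, Cacng4 and Cacng7, were named after their values were seen. Cacnb4, a cytoplasmic beta subunit, had 7.88 and 9.62, against 6.64 to 6.93 in the other 8 arrays, whereas Cacnb2 had 7.25 and 6.94, within the 6.81 to 7.27 of the other 8. Of the gamma genes, several of which are better known as partners of glutamate receptors, Cacng4 had 8.76 and 9.52, against 7.52 to 7.84, and Cacng7 had 7.75 and 11.06, against 7.17 to 7.38.

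Sodium channel genes above in both arrays were 3 pores of neurons and a beta subunit. Scn8a, a pore concentrated where action potentials start, had 8.02 and 8.75, against 5.57, 5.69 and 5.81 in the other nicotine mice and 5.48 to 5.81 in water mice. Scn3a, a pore best known from the developing brain, had 7.62 and 10.13, against 5.28 to 5.37 in the other nicotine mice and 5.19 to 5.48 in water mice. Scn9a, a pore of sensory and sympathetic neurons, had 7.20 and 7.28, against 6.18 to 6.64 in the other 8 arrays. Scn3b, a beta subunit, had 6.99 and 9.67, against 6.29 to 6.76. Scn8a, Scn3a and Scn9a were outside the nicotine test below, because their means over the 10 arrays were under its filter on low values.

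Of the voltage-gated potassium channel pores over 1 unit above in both arrays, 3 of 5 were of the ether-à-go-go family. Kcnh1 had 8.14 and 8.23, against 6.70, 6.73 and 6.76 in nicotine 2, 4 and 5 and 6.51, 6.63, 6.64, 6.67 and 6.49 in water mice, and its relative Kcnh5 had 7.54 and 8.19, against 5.77 to 5.98 in the other 8 arrays. Kcnh8, of the same family, had 9.13 and 7.69, against 6.15 to 6.31, a gap of 1.38 that was 0.56 on its second probe set. These are slow voltage-gated channels of the brain, and Kcnh1 is also known from tumours. Kcnb2, a delayed rectifier, had 7.28 and 8.20, against 5.67 to 6.00. Kcnc1, a pore of fast-firing neurons that was named after its values were seen, had 9.03 and 8.00, against 6.44 to 6.84. Kcnab2, a cytoplasmic subunit of Kv channels, had 9.03 and 8.90, against 7.44 to 7.62 in the other nicotine mice and 7.29 to 7.49 in water mice.

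Among the other potassium channels, 4 genes were over 1 unit above in both arrays, here named after their values were seen. Kcnj3, a pore opened by G proteins, had 7.76 and 9.73, against 6.08 to 6.51 in the other 8. Kcnk10, a mechanically gated tandem-pore channel, had 7.61 and 7.69, against 6.23 to 6.45, and Kcnt1, a channel opened by internal sodium, had 7.94 and 8.00, against 6.56 to 6.89. Kcnmb2, an accessory subunit of the large-conductance calcium-activated (BK) channel, had 7.98 and 11.54, against 6.24 to 6.86. Over the 18 genes, the SD among the other 8 arrays ran from 0.051 to 0.195. The genes were picked for a gap over 1, so this SD is no measure of how sure the gaps are.

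**Figure D2:**
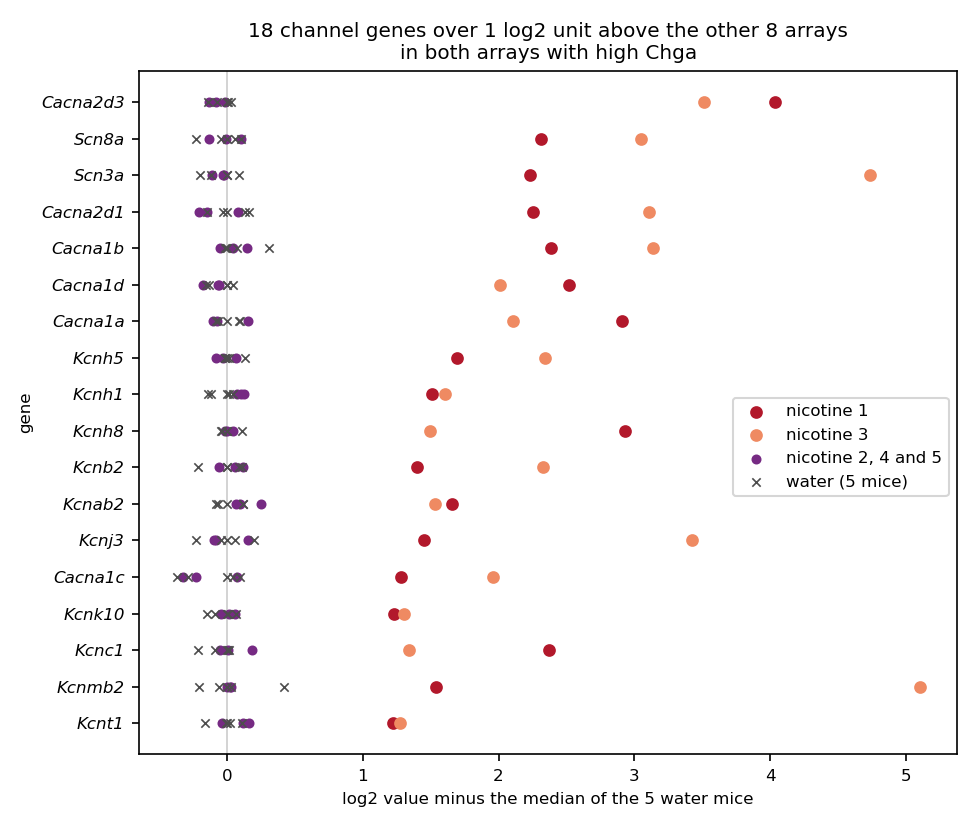
Each row is one of the 18 channel genes for which nicotine 1 (red) and nicotine 3 (orange) were both over 1 log2 unit above the other 8 arrays; the horizontal axis is the log2 value minus the median of the 5 water mice. Nicotine 2, 4 and 5 (purple) lie near the water mice (crosses) around 0, just above all of them for Kcnh1, while Kcnmb2 and Scn3a lie furthest right in nicotine 3 and Cacna2d3 in nicotine 1.

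Upstream bases of genes in this set are shown because the genes were high together in the same 2 arrays. RefSeq windows of build GRCm38.p6 were searched for CAGCTG, an E-box, the kind of motif bound by basic helix-loop-helix factors (a palindrome, so both strands are covered at once). In the 250 bases before an annotated start, it occurred in 4 of the 14 genes of the 18 that had a window, 28.6%, in 27 of 97 channel genes with a window, 27.8%, and in 14.7% of 27025 genes of all kinds. The share was thus close to that of channel genes in general. A gene counted if any of its windows matched, and genes differed in their number of windows. There were 21 windows for the 14 genes, 132 for the 97 and 32851 for the 27025. The 27025 were not limited to genes on the array, so their share is a rough comparison. The 4 windows, each 5′ to 3′ on the strand of the gene with the E-box in capitals, lay at chr2:24763153-24763402 (minus strand) for Cacna1b, chr14:30353487-30353736 (minus) for Cacna1d, chr14:29721865-29722114 (minus) for Cacna2d3 and chr2:55435720-55435969 (plus) for Kcnj3.
Cacna1b: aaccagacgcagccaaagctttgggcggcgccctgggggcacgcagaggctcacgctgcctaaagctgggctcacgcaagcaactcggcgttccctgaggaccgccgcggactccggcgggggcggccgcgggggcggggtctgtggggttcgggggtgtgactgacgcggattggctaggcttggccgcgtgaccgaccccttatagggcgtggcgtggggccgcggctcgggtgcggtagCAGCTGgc
Cacna1d: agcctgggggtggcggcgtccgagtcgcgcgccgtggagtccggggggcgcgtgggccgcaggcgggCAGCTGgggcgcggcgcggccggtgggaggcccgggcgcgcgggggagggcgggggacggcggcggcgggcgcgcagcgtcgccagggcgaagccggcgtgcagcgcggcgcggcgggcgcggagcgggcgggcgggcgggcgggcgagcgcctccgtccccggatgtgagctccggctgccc
Cacna2d3: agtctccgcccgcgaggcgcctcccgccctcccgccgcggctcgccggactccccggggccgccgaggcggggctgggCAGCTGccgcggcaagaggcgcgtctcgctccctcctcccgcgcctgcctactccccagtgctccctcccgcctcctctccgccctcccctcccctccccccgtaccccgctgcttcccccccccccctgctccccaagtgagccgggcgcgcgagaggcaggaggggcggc
Kcnj3: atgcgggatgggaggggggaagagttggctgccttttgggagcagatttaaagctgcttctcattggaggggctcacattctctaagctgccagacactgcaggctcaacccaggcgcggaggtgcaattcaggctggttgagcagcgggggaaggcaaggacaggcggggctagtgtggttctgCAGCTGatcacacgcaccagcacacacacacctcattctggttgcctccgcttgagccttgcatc
A match is a description of sequence, and binding at these windows was not measured.

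The Chga-high arrays also differed from each other. Nicotine 3 was the higher of the 2 in 28 of the 34 channel genes, 82.4%, against 72.7% of all genes above in both. Nicotine 3 alone was over 1 unit above the other 9 arrays in 15 channel genes, 11.8%, against 4.31% of all genes, and nicotine 1 alone in 6, 4.72%, against 1.14%. Alone here means over 1 unit clear of every other array, so some of these genes, such as Scn3a and Kcnc1, are also among the 34. Nicotine 3 alone was over 1 unit below in 4, 3.15%, against 5.82%, and nicotine 1 alone in 0, against 0.0602%. None of the other 8 arrays alone was over 1 unit above the rest for any channel gene, against 0.145% of all genes.

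Genes high in nicotine 1 alone were named after their values were seen, apart from Kcnh2, Cacna1s and Cacng1. Kcnk16, a tandem-pore channel of pancreatic islets, had 10.87 in nicotine 1, against 6.94 in nicotine 3 and 6.79 to 7.18 in the other 8. Kcnj5, which pairs with Kcnj3 in G protein-gated channels, had 9.47 in nicotine 1, against 6.00 in nicotine 3 and 6.03 to 6.21 in the other 8. Kcnh2, a channel of heart and endocrine cells, had 10.12 in nicotine 1 and 8.84 in nicotine 3, against 8.71 to 9.03, and its relative Kcnh3 had 8.61 and 6.91, against 6.69 to 7.24. The skeletal muscle subunits Cacna1s and Cacng1 were also highest in nicotine 1, with 7.55 and 7.57, against 6.42 to 6.83 and 6.91 to 7.21 in the other 8 arrays, beside its high skeletal muscle markers.

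Genes far higher in nicotine 3 than in any other array, apart from Scn2a, were also named after their values were seen. Scn2a, a pore of brain neurons, had 9.52 in nicotine 3 and 7.44 in nicotine 1, against 7.24 to 7.55 in the other 8 arrays. All 14 of its probe sets were highest in nicotine 3, and in 4 of them nicotine 1 was also above the other 8, by at most 0.17. Kcnh7 had 8.74 in nicotine 3, against 6.47 in nicotine 1, itself above the 5.73 to 6.08 of the other 8. Kcnn2, a small-conductance calcium-activated channel, had 8.23, against 6.54 and 6.40 to 6.61. Scn1a had 6.90, against 5.14 and 5.14 to 5.44, and Cacna1e, the R-type calcium channel pore, had 8.09, against 6.91 and 6.76 to 6.99. Kcnj6 and Kcnj11, subunits of endocrine and neuronal inward rectifiers, showed no such gap: Kcnj6 had 5.76 in nicotine 1 and 5.68 in nicotine 3, against 5.59 to 5.83, and Kcnj11 had 7.57 and 7.48, against 7.07 to 7.69.

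**Figure D3:**
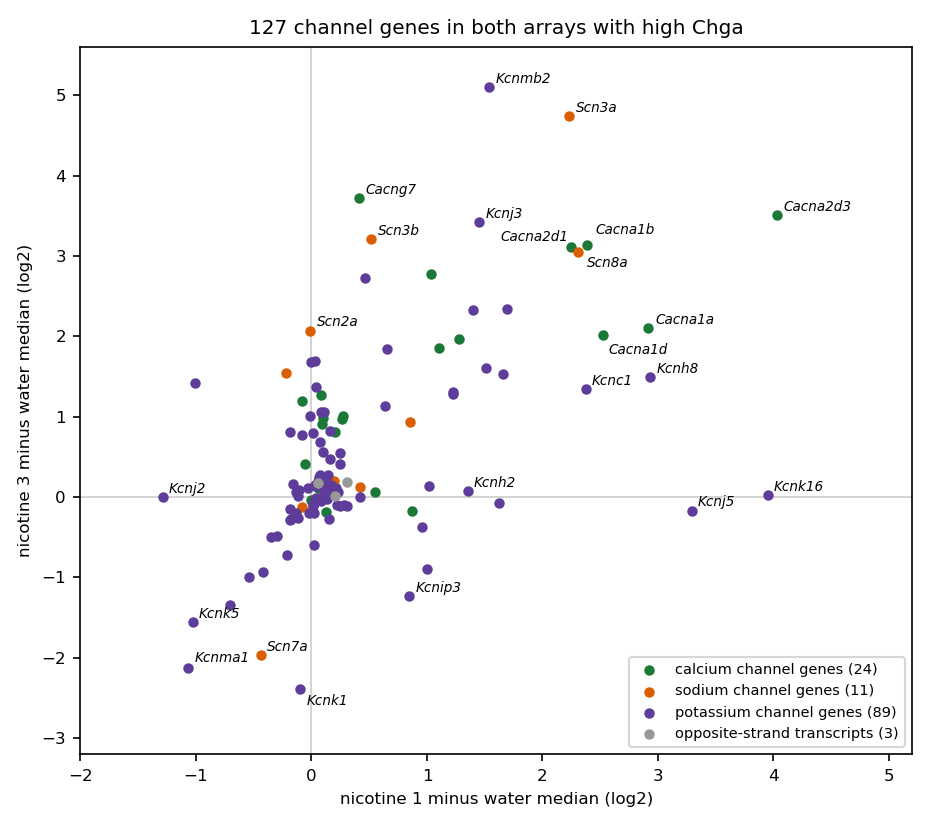
Each point is one of the 127 channel genes, with its log2 value minus the water median in nicotine 1 on the horizontal axis and in nicotine 3 on the vertical axis, coloured by class. Cacna2d3, Cacna1a and other calcium channel genes (green) lie high on both axes, Kcnk16 and Kcnj5 along the horizontal axis, and Scn2a along the vertical axis.

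Neighbouring channel genes did not always go together. By the order of protein-coding genes in RefSeq GRCm38.p6, Scn3a lies next to Scn2a, and Scn1a, Scn9a and Scn7a follow each other on the same chromosome. On the probe sets used, Scn3a and Scn9a were above in both arrays and Scn2a and Scn1a in nicotine 3 alone. Scn7a, a sodium-sensing relative, had its lowest value, 6.67, in nicotine 3. Cacng4 lies between Cacng1 and Cacng5, of which Cacng1 was highest in nicotine 1 and Cacng5 in nicotine 3 (7.91, against 6.51 to 7.01 in the other 8 and 6.63 in nicotine 1). Kcnk16, high in nicotine 1, lies next to Kcnk5, which was low in both arrays.

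The channel genes below the rest in both arrays were all of potassium channels, with gaps of at most 0.91. Kcnma1, the pore of the BK channel, had 9.69 in nicotine 1 and 8.63 in nicotine 3, against 10.67, 10.61 and 10.60 in nicotine 2, 4 and 5 and 10.74, 10.75, 10.76, 10.64 and 10.81 in water mice. On its second, dim probe set it had 5.96 and 5.77, against 5.90 to 6.48, with no gap. Its smooth muscle partner Kcnmb1 had 7.05 and 6.41, against 7.71 to 8.10 in the other nicotine mice and 7.64 to 7.81 in water mice. Both had the lowest value of all in nicotine 3. Of 11 smooth muscle markers, 9 were below the other 8 arrays in both, as were 5 of 8 luminal markers, against 21.1% of all genes. The part of smooth muscle in the values of Kcnma1 and Kcnmb1 was not tested. Kcnk5, an acid-sensitive tandem-pore channel of epithelia, had 7.99 and 7.46, against 8.86 to 9.26, and Kcnk6 had 7.69 and 7.18, against 8.02 to 8.42. Kcnn4, a calcium-activated channel of epithelial and immune cells, had 7.28 and 6.83, against 7.46 to 7.95. The gaps of Kcne4, Kcnd3 and Kcng1 were 0.17, 0.13 and 0.12. Kcnj8, a pore of the ATP-sensitive channel of vascular smooth muscle, had 8.13 and 7.98, within the 7.93 to 8.35 of the other 8. Kcnk1, a tandem-pore channel named after its values were seen, had 9.48 in nicotine 3, against 11.76 in nicotine 1 and 11.71 to 11.96 in the other 8.

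Partners of the channels that are not subunits of these families were read from a list chosen with earlier results of these data known. Their shares are thus no independent check on the channel genes. Of 44 partner genes listed, 39 were measured, of which 22 were above the other 8 arrays in both Chga-high arrays, 8 of them by over 1 unit, and 6 below. These are 56.4%, 20.5% and 15.4% of the measured partners, against 17.5%, 2.05% and 21.1% of all genes. Fgf14, which binds the tail of sodium channels, had 10.94 and 9.85, against 6.40 to 6.97. Nalcn, the sodium leak channel, had 9.85 and 9.70, against 7.13 to 7.48, its partner Unc79 had 8.29 and 9.96, against 6.19 to 6.61, and Hcn2, a pacemaker channel, had 8.53 and 8.83, against 6.85 to 7.07. On the other side, and named after their values were seen, Lrrc26, an accessory subunit that lets the BK channel open in secretory epithelium, had 11.79 and 7.63, against 12.74 to 13.00, and Rest had 8.44 and 6.98, against 9.28 to 9.70. Rcor2, a corepressor also named so, had 8.49 and 9.14, against 6.97 to 7.13.

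**Figure D4:**
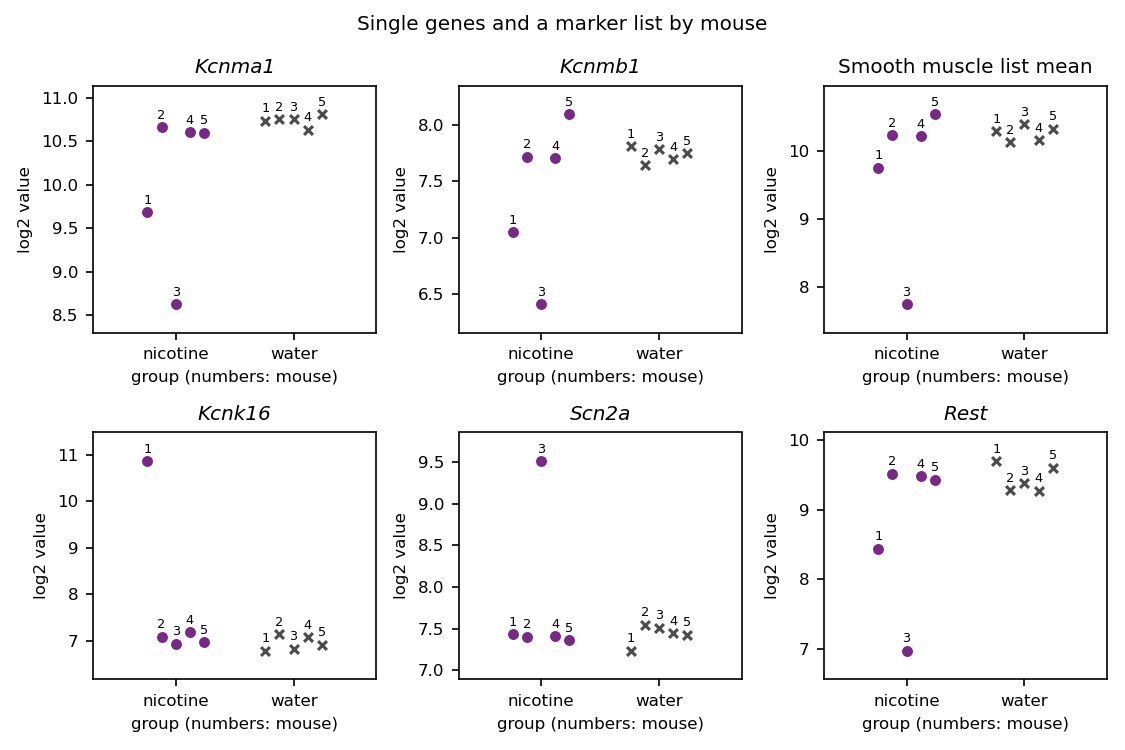
Log2 values of Kcnma1, Kcnmb1, Kcnk16, Scn2a and the repressor gene Rest, and the mean of 11 smooth muscle markers, are plotted by mouse with nicotine left of water and the mouse number above each point. Nicotine 1 and 3 are the lowest points for Kcnma1, Kcnmb1, the smooth muscle mean and Rest, nicotine 1 stands alone for Kcnk16 and nicotine 3 for Scn2a.

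The study's own comparison was nicotine against water, and no channel gene passed it. The test was limma across 14953 genes, those left after the 25% with the lowest mean were set aside, with Benjamini-Hochberg adjustment over all of them. It held 88 of the 127 channel genes, and 0 passed an adjusted p of 0.05, against 0% of all genes, with no adjusted p under 0.458. Without adjustment, at p under 0.05, 1 channel gene was higher, 1.14%, against 4.28% of all genes, and 1 lower, 1.14%, against 5.84%. The nicotine and water values did not overlap in 1 channel gene in the higher direction, Kcnh1, against 2.02% of all genes, and in 0 in the lower, against 2.88%. The median difference, nicotine minus water, was 0.14 log2 units over the 88 channel genes and 0.004 over all tested genes. The difference was positive in 68 of the 88, 77.3%, against 50.7% of all genes, and in 21 of 22 tested calcium channel genes, but in 11 of these 22 without nicotine mice 1 and 3. Of the 88, 7 had a mean under the filter in the other 8 arrays and were tested only through nicotine 1 and 3. With weights that lower the influence of variable arrays, limma called 2.84% of all genes higher and 4.49% lower, but 0 of the 88 channel genes, whose smallest adjusted p was then 0.0702.

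Higher in nicotine mice with the smallest p were Kcnd3os, Kcnh1, Kcnab2, Kcnab3 and Kcnt1. Kcnd3os, a transcript named for the strand opposite Kcnd3, had 8.39, 8.38, 8.26, 8.22 and 8.32 in nicotine mice 1 to 5, against 7.95, 8.27, 8.07, 8.23 and 8.08 in water mice. Its groups overlapped, and its difference was 0.20 ± 0.08 (SE, limma, n = 5 each, adjusted p = 0.458). Kcnh1 averaged 7.31 ± 0.80 in nicotine mice and 6.59 ± 0.08 in water mice (SD, n = 5 each), with all 5 nicotine mice above all water mice and a difference of 0.72 ± 0.33 (SE). Kcnab2 differed by 0.70 ± 0.33, Kcnab3, another cytoplasmic subunit, by 0.20 ± 0.10 and Kcnt1 by 0.56 ± 0.27, each with an adjusted p of 0.458 by limma.

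In the lower direction the smallest p belonged to Scn7a, Kcnma1, Kcnn4, Kcnj15 and Kcnk6. Scn7a had 8.20, 7.87, 6.67, 8.29 and 8.30 in nicotine mice, against 9.07, 8.64, 8.70, 8.56 and 8.08 in water mice. Nicotine 2 and 3 were below all water mice, the groups overlapped, and the difference was -0.74 ± 0.32 (SE, limma, adjusted p = 0.458). The fibroblast markers averaged 8.32 to 9.49 in nicotine mice and 9.81 to 10.16 in water mice, and their part in this value was not tested. Kcnma1 averaged 10.04 ± 0.89 in nicotine mice and 10.74 ± 0.06 in water mice (SD, n = 5 each), a difference of -0.70 ± 0.36. The differences were -0.34 ± 0.18 for Kcnn4, -0.25 ± 0.14 for Kcnj15, an inward rectifier, and -0.29 ± 0.20 for Kcnk6, whose adjusted p by limma was 0.473.

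Most of these differences were smaller without nicotine mice 1 and 3. The median SD of channel genes was 0.323 over the 5 nicotine mice and 0.107 over the water mice, and 0.0981 over nicotine 2, 4 and 5. With nicotine 1 and 3 left out, leaving 3 nicotine and 5 water mice, 0 channel genes and 0% of all genes passed by limma, and the smallest adjusted p of a channel gene was 0.286. The median difference was 0.02 over the channel genes and 0.01 over all tested genes. The difference was positive in 56 of 88 channel genes, 63.6%, against 53.5% of all genes. At an unadjusted p under 0.05, 3 channel genes were higher, 3.41%, against 6.01% of all genes, and 1 lower, 1.14%, against 8.69%. These were Kcnd3os (0.19 ± 0.08 SE), Kcnh1 (0.14 ± 0.06) and the calcium-activated channel Kcnn3 (0.16 ± 0.07, named after its values were seen), and Scn7a in the lower direction (-0.46 ± 0.18). Kcnma1 differed by -0.11 ± 0.05 there and Kcnk6 by 0.01 ± 0.09.

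**Figure D5:**
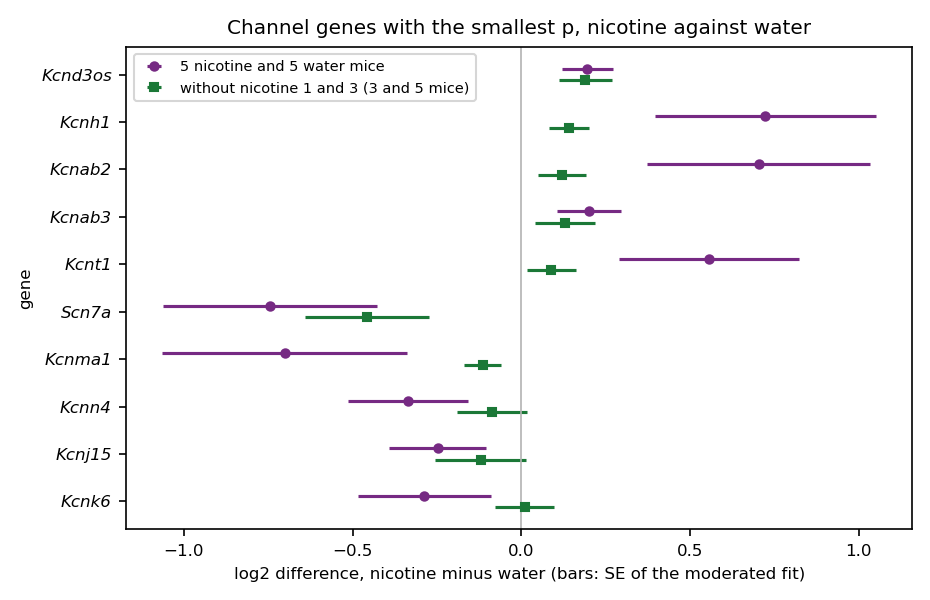
Points are log2 differences, nicotine minus water, with bars of 1 SE of the moderated fit, for the 5 channel genes with the smallest p in each direction; circles are all 10 mice and squares the 8 mice without nicotine 1 and 3. Kcnd3os has nearly the same difference in both fits, 0.20 and 0.19, whereas Kcnh1 has 0.72 and 0.14 and Kcnma1 has -0.70 and -0.11.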

How the data were processed

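RNA was extracted, amplified with a whole-transcript kit and hybridised to single-colour Affymetrix arrays, 1 per mouse, per the labels' protocols. The deposited table holds log2 values of 35556 probe sets; that they are log2 and normalized between arrays was read from their range, 3.59 to 14.1, and array medians of 7.50 to 7.57. The authors' background correction, probe summary and normalization were not given in the sources used here.

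Probe sets naming 1 gene in the platform annotation (21789) were kept, and each gene took the probe set with the highest mean. Genes in the lowest 25% by mean, under 6.55, were left out of the nicotine test. Nicotine was compared with water by limma 3.58.1 in R 4.3.3 (lmFit and eBayes), with Benjamini-Hochberg adjustment over 14953 genes, and the code was tested on simulated data. The Chga-high arrays were described without a filter or a test.

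Named were the 12 members with the largest gap above and the 8 with the largest gap below, the 5 with the smallest p in each direction, subunits listed by name for muscle or neuroendocrine cells, and the 4 partner genes with the largest gap above; other names are marked where they stand. The members, lists and rules were chosen with earlier results of these data known. Mice of both groups share numbers, which the labels do not tie to a cage or day. Correlations of same-numbered deviations were 0.0234, -0.129, -0.0824, 0.00941 and 0.164, so the numbers were not taken as pairs. Alternatives were array weights, trended and robust eBayes, other filters, probe set choices and normalizations, a seminal vesicle covariate, mouse number as a block, and leaving out arrays. Probe sets naming several genes were left out, and 3 of these list channel genes. Symbols of all 127 genes matched RefSeq GRCm38.p6, from which the upstream sequences were taken.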

Additional observations from a re-analysis of the deposited data

Results flagged for a closer look

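Single mice stood far from the other 4 of their group in 31 of 127 channel genes among nicotine mice and in 4 among water mice, by a gap test that chance passes in about 1 of 20 groups. These are 24.4% and 3.15% of channel genes, against 17.2% and 5.81% of all genes, so single nicotine mice stood apart in many genes of all kinds. The genes below are those of the report or named after their values were seen. Nicotine 3 stood high for Cacng7 (11.06 log2 units), Scn3b (9.67), Scn2a (9.52), Kcna3 (9.36), Kcnh7 (8.74), Kcnn2 (8.23), Cacng8 (8.12), Cacna1e (8.09), Cacna1h (7.97), Cacng5 (7.91), Kcns2 (7.10) and Scn1a (6.90), and low for Kcnk1 (9.48) and Scn7a (6.67). Nicotine 1 stood high for Kcnk16 (10.87), Kcnh2 (10.12), Kcnj5 (9.47), Kcnh3 (8.61), Cacna1s (7.55) and Kcnip2 (7.01), a cytoplasmic partner of Kv4 channels. Among water mice, water 2 stood high for Cacna1b (6.96), water 3 high for Kcnh5 (5.98) and water 1 low for Cacnb2 (6.81).

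The probe sets that list several sodium channel genes, left out of the report, were also above the other 8 arrays in nicotine 1 and 3. The one listing Scn2a, Scn9a and Scn3a had 5.82 in nicotine 1 and 7.86 in nicotine 3, against 4.00 to 4.27 in the other 8. The one listing Scn9a and Scn3a had 7.06 and 9.44, against 4.72 to 5.11, and the one listing Scn3a and Scn1a had 7.56 and 9.69, against 6.24 to 6.51.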

How the results depend on the processing

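No channel gene passed limma's adjusted threshold under any alternative run, with the smallest adjusted p between 0.0702 and 0.858. Of all tested genes, 0 passed, with 1514 at an unadjusted p under 0.05, except with array weights, where 1096 passed. The median channel gene difference of 0.14 became 0.0470 with the lower 50% of genes left out, 0.0390 with array weights, and 0.0191 without nicotine 1 and 3. Leaving out each mouse in turn gave 0.0579 (without nicotine 3) to 0.198 (without water 2). Kcnk6 changed sign, to 0.0155 with array weights and 0.00943 without nicotine 1 and 3, and of 224 recomputed single-gene differences, these 2 included, 222 kept direction and side. The other filters, trended and robust eBayes and the replicate block leave single-gene differences unchanged by design, so their direction was fixed in advance. With mouse number as a replicate block, 0 genes were called. The median stayed at 0.143, which it had to, because each number occurs once per group. The counts above and below, 34 and 11, became 4 and 4 of 19 with the lower 50% left out and 18 and 0 at a gap over 1. For the brighter 50%, the shares over all genes were not taken. Of 80 gaps recomputed, 73 moved by less than 1 SD of the other 8 arrays. Many of these could not move, because the probe set choices leave a gene with 1 probe set unchanged. With probe sets averaged, the gap above went from 2.09 to 2.38 for Cacna2d1 and from 1.38 to 1.03 for Kcnh8. The gap below of Kcnma1 went from 0.91 to 0.44. The cause of these changes was not tested. Array number and dim signal limit the rest: 39 of the 127 genes lay under the filter.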
